A study of Rattus norvegicus with 8 samples.

Results

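The genes described here are 10 antioxidant enzyme genes, Hmox1, Nqo1, Gclc, Gclm, Txnrd1, Sod1, Sod2, Sod3, Cat and Gpx3, listed by symbol. The list was made with earlier results of these data known. Each was represented by 1 probe set of the array, and together they made up 10 of the 14506 genes that could be named. In the rat genome Hmox1 and Nqo1 lie on chromosome 19, Gclc on 8, Gclm on 2, Txnrd1 on 7, Sod1 on 11, Sod2 on 1, Sod3 on 14, Cat on 3 and Gpx3 on 10 (RefSeq, GRCr8). Their transcripts were read on 8 arrays of the Affymetrix Rat Gene 1.0 ST type, in full-term neonates of 2 inbred rat strains, 1 h after birth. The groups were the ductus arteriosus (DA) of Brown-Norway (BN) rats, the aorta of BN rats, the DA of Fischer344 (F344) rats and the aorta of F344 rats, with 2 replicate arrays each. The labels name no treatment and no altered gene in any group. Each array received RNA from pooled tissues, 150 ng of total RNA being labelled with biotin. Whether replicates came from separate animals or litters is not in the labels, and the p-values therefore measure only how far these samples spread, which may be technical.

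Before birth the DA carries blood from the pulmonary artery into the aorta, and it closes after birth, when the oxygen tension of the blood rises. In BN rats this closure is known to be often incomplete. Cells remove reactive oxygen species in steps. Superoxide dismutases turn superoxide into hydrogen peroxide, and catalase, glutathione peroxidases and peroxiredoxins turn hydrogen peroxide into water. Glutathione and thioredoxin supply the electrons for the peroxidases. The transcription factor NRF2, encoded by Nfe2l2, is held back by KEAP1 and raises transcription of Hmox1, Nqo1, Gclc, Gclm and Txnrd1 through antioxidant response elements, sites that BACH1 can occupy as a repressor. In arteries, the extracellular dismutase encoded by Sod3 binds to the matrix and is a large part of the dismutase activity of the wall.

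Values are log2 signals made by RMA, so that a difference of 1 is 2-fold, and they compare groups within a gene but not different genes. A gene was said to rise or fall where limma gave a Benjamini-Hochberg adjusted p under 0.05 over all 14506 genes. Array medians over all probe sets were alike, between 6.96 and 7.05. Over the 14506 genes they were lowest on the F344 DA arrays, at 7.39 and 7.41, against 7.45 to 7.55 on the other arrays. The BN DA replicates differed most from each other, with an SD of the replicate difference over genes of 0.35, against 0.20 to 0.26 in the other groups. The 9 tested smooth muscle markers had mean values of 11.62 and 11.42 on the BN DA arrays, 11.39 and 11.17 on the BN aorta arrays, 11.73 and 11.57 on the F344 DA arrays, and 11.28 and 11.22 on the F344 aorta arrays. In F344 2 of the 9 rose in DA, Des and Cnn1, and in BN 0 passed by limma, with 2 at an unadjusted p under 0.05. On BN DA replicate 1 the mean of the 8 thymocyte and lymphocyte markers was 7.07, against 5.77 to 5.91 on the other 7 arrays. Because whole vessels were used, fewer cells of a type and less RNA per cell cannot be told apart.

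In F344, DA was compared with aorta, and 2 of the 10 antioxidant genes, Gclc and Sod3, fell in DA while 0 rose. Of all genes 14% were called in this comparison, with 8.87% higher in DA and 5.12% lower. Of the called genes, 63.4% were higher, and 87.6% were when the arrays were centred on brighter genes. The 10 antioxidant genes had a median difference of -0.29, against -0.04 for all genes. For genes brighter than the median of all gene values it was -0.17, and all of the 10 but Hmox1 and Nqo1 were among those. At an unadjusted p under 0.05, 3 of the 10 counted, against 29.5% of all genes. In BN, 0 of the 10 genes passed the same comparison by limma, and 1, Gclc, had an unadjusted p under 0.05. Of all genes, 1.81% were called there, and 14% had such an unadjusted p. Between strains, 0 of 10 passed in DA, where 4.53% of all genes were called, and 0 of 10 passed in aorta, where 0.159% were. At an unadjusted p under 0.05, 4 of the 10 genes counted between strains in DA, against 22.8% of all genes, and 0 in aorta, against 5.22%.

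**Figure D1:**
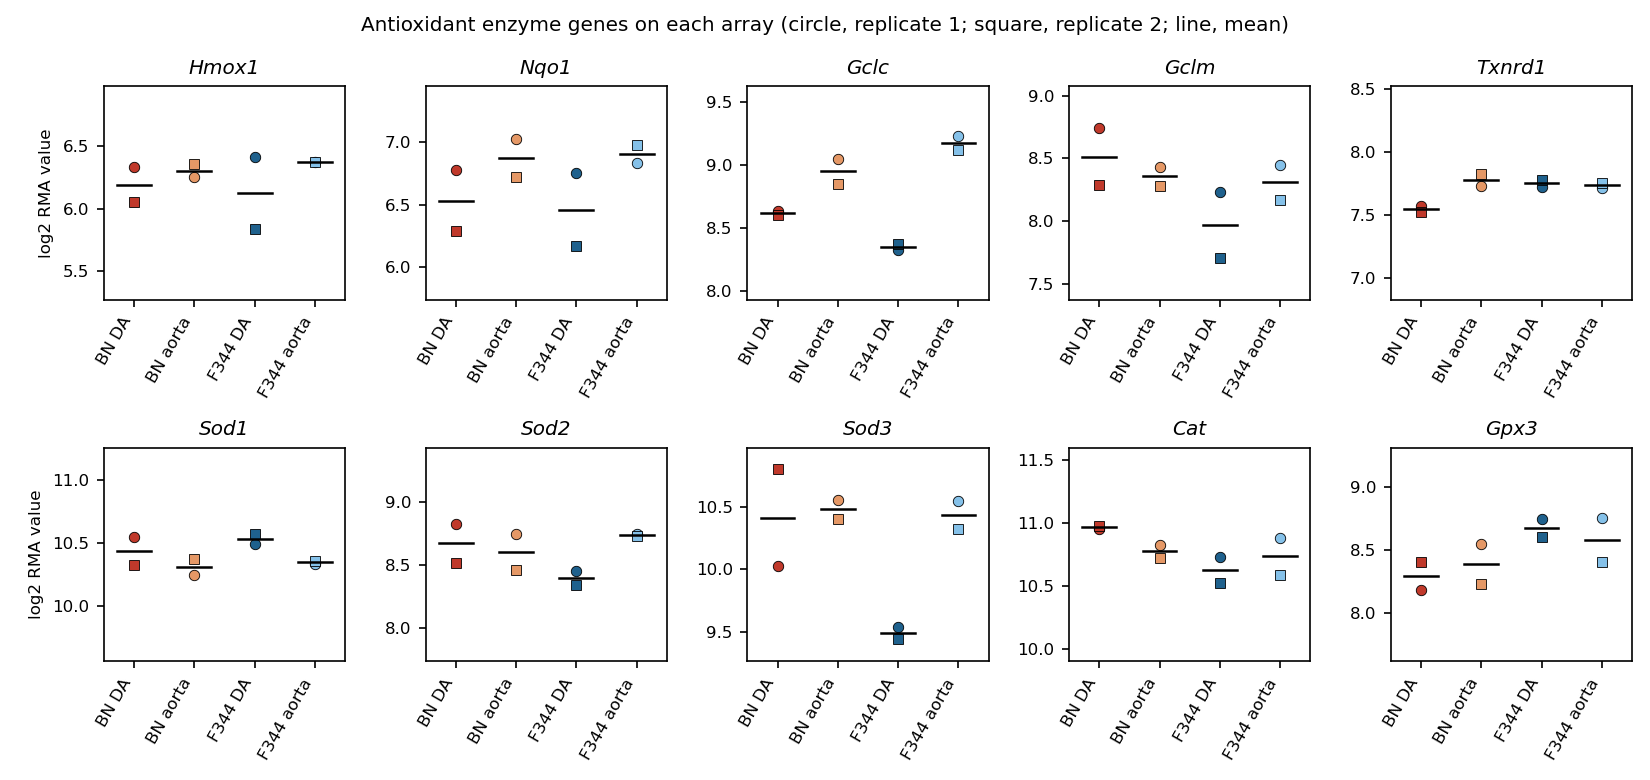
Log2 RMA value (vertical axis, the same span of 1.7 in every panel) of each antioxidant enzyme gene on the 8 arrays, by group (horizontal axis). Circles are replicate 1, squares are replicate 2 and lines are group means; both F344 DA arrays of Sod3, at 9.54 and 9.44, and of Gclc, at 8.33 and 8.37, lie below all arrays of the other groups.

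Gclc encodes the catalytic subunit of glutamate-cysteine ligase, the rate-limiting enzyme of glutathione synthesis. Its values were 8.33 and 8.37 on the F344 DA arrays, against 9.23 and 9.12 on the F344 aorta arrays. The DA arrays were far below the aorta arrays, with gaps between replicates of 0.04 and 0.11. Gclc was 1.77-fold lower in F344 DA (mean 8.35 ± 0.03 in DA against 9.18 ± 0.08 in aorta, SD, n = 2). The log2 difference was -0.83 ± 0.12 SE by limma (adjusted p = 0.00337, 95% interval -1.10 to -0.55). In BN, Gclc was at 8.64 and 8.60 in DA, against 9.05 and 8.85 in aorta. The BN arrays did not overlap either, but the difference of -0.33 ± 0.12 SE did not pass (limma adjusted p = 0.261, 95% interval -0.61 to -0.05). The order of the group means was F344 aorta, BN aorta, BN DA and F344 DA, and no arrays of neighbouring groups overlapped. The strain differences were 0.27 ± 0.12 SE in DA and -0.22 ± 0.12 SE in aorta, which did not pass (limma adjusted p = 0.235 and 0.998). They share their arrays with the tissue comparisons. The difference between the tissues was 0.49 ± 0.18 SE smaller in size in BN, which did not pass as an interaction (unadjusted p = 0.0196, limma adjusted p = 0.437). Averaged over strains, Gclc was the 1 antioxidant gene of 10 that passed between tissues (-0.58 ± 0.09 SE, limma adjusted p = 0.0025), where 16.6% of all genes were called, 10.1% higher and 6.47% lower. Sod3 was just outside the threshold there (-0.50 ± 0.16 SE, limma adjusted p = 0.0573). It passed with the trend and robust moderation (0.0481), with array weights (0.0319) and without BN DA replicate 2 (-0.70, 0.00146), and Nqo1 passed without BN DA replicate 1 (-0.51, limma adjusted p = 0.0346). The F344 call held under all 15 alternatives run, with limma adjusted p between 0.000417 and 0.0422.

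Gclm encodes the modifier subunit that pairs with the Gclc product and raises its affinity for glutamate. The windows from 250 bases before to 50 bases after the transcription start of both subunit genes are shown because the subunits work as 1 enzyme, yet Gclc and not Gclm was called between the F344 tissues. They are RefSeq sequences of build GRCr8, where Gclc lies at chr8:87510226-87510525 on the plus strand and Gclm at chr2:213031885-213032184 on the plus strand. Capitals mark a match to the core of the antioxidant response element, TGACNNNGC, which was searched on both strands.
Gclc: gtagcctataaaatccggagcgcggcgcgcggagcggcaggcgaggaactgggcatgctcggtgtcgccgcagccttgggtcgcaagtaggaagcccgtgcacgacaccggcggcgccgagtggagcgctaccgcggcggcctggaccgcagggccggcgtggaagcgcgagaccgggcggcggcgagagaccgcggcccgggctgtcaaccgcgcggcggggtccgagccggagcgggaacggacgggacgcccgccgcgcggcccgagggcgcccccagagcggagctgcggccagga
Gclm: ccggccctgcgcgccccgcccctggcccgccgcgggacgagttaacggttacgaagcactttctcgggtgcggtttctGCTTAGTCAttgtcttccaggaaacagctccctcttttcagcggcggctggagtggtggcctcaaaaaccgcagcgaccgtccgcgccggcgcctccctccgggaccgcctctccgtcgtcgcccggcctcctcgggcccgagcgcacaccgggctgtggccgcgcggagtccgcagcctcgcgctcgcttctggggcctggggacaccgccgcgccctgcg

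The Gclm match begins at position -172 from the start site and is read on the opposite strand. RefSeq windows were matched for 8 of the 10 genes, with 9 windows because Txnrd1 has 2, and not for Hmox1 and Sod3. A match was found in 3 of the 9 windows, those of Gclm, Txnrd1 (GCTTTGTCA at position -78, in the window at chr7:22755855-22756154, minus strand) and Sod2 (GCAGGGTCA at position -35, in the window at chr1:50050119-50050418, minus strand). Each of these matches is also read on the strand opposite to the gene. Over all 33469 RefSeq windows of the same length, 12.1% held a match. A match to these letters is a description of the sequence and not a binding site, and elements farther from the start site were not searched.

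Gclm was at 8.74 and 8.29 in BN DA and at 8.43 and 8.28 in BN aorta, and at 8.24 and 7.71 in F344 DA, against 8.45 and 8.17 in F344 aorta. The tissues overlapped in both strains, with differences of 0.16 ± 0.21 SE in BN and -0.34 ± 0.21 SE in F344 that did not pass (limma adjusted p = 0.836 and 0.313). Between strains in DA, the BN arrays lay above both F344 arrays. That difference was 0.54 ± 0.21 SE, which did not pass (limma adjusted p = 0.164, unadjusted p = 0.029, 95% interval 0.07 to 1.01). With the replicate number as a block it passed (limma adjusted p = 0.0338, and between 0.0338 and 0.67 over the 15 alternatives). The difference was 0.80 without F344 DA replicate 1, 0.28 without F344 DA replicate 2, 0.31 without BN DA replicate 1 and 0.77 without BN DA replicate 2.

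The other NRF2 target genes among the 10 did not pass in any comparison. Nqo1 encodes a quinone reductase that uses NADPH or NADH. It was at 6.77 and 6.29 in BN DA, against 7.02 and 6.72 in BN aorta, and at 6.75 and 6.17 in F344 DA, against 6.83 and 6.97 in F344 aorta. The F344 tissues did not overlap, whereas the BN tissues did. The differences were -0.34 ± 0.22 SE in BN and -0.44 ± 0.22 SE in F344 (limma adjusted p = 0.589 and 0.216), and the average over strains was -0.39 ± 0.16 SE (unadjusted p = 0.0337, limma adjusted p = 0.127).

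Hmox1 encodes heme oxygenase 1, which breaks heme down to biliverdin, iron and carbon monoxide. Its values were 6.33 and 6.05 in BN DA, 6.25 and 6.35 in BN aorta, 6.41 and 5.84 in F344 DA, and 6.37 and 6.37 in F344 aorta. The tissues overlapped in both strains, and the differences were -0.11 ± 0.19 SE in BN and -0.24 ± 0.19 SE in F344 (limma adjusted p = 0.885 and 0.413). Hmox1 and Nqo1 lay below the array's median gene value on 8 of 8 arrays, and the other 8 antioxidant genes lay above it on 8 of 8. Hmox1, Nqo1 and Gclm were each higher on replicate 1 than on replicate 2 in both DA groups. In F344 DA the gaps were 0.57, 0.58 and 0.53, and 1.78%, 1.7% and 2.61% of all genes had replicates at least as far apart. The mean of the 9 tested erythroid markers was also higher on replicate 1, though not every marker was. The means were 7.71 and 6.94 in BN DA, 7.27 and 6.86 in BN aorta, 7.35 and 6.73 in F344 DA, and 6.90 and 6.47 in F344 aorta, each as replicate 1 and then replicate 2. Their part in the replicate gaps was not tested.

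Txnrd1 encodes cytosolic thioredoxin reductase, a selenoprotein. It was at 7.57 and 7.52 in BN DA, against 7.73 and 7.83 in BN aorta. In F344 it was at 7.72 and 7.78 in DA, against 7.72 and 7.76 in aorta. The BN DA arrays were the lowest of all 8, and the other 3 groups overlapped. The difference between tissues was -0.23 ± 0.12 SE in BN and 0.02 ± 0.12 SE in F344 (limma adjusted p = 0.424 and 0.94). Txnrd1 had the smallest range of the 10 genes over the 8 arrays, 0.31.

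The superoxide dismutase genes differed in their patterns. Sod3, the gene of the extracellular enzyme, was at 9.54 and 9.44 in F344 DA, against 10.54 and 10.32 in F344 aorta. The F344 DA arrays were lower than the aorta arrays without overlap. Sod3 was 1.92-fold lower in F344 DA (mean 9.49 ± 0.07 in DA against 10.43 ± 0.16 in aorta, SD, n = 2). The log2 difference was -0.94 ± 0.22 SE by limma (adjusted p = 0.0222, 95% interval -1.44 to -0.44). Under the 15 alternatives the difference lay between -1.05 and -0.73, and the limma adjusted p lay between 0.000896 and 0.152. The call was lost in 6 of them, namely repeated quantile normalization, centring on brighter genes, and leaving out an F344 array. The limma adjusted p was 0.0608 with the first and 0.0694 with the second, 0.0888 and 0.141 without F344 DA replicate 1 and 2, and 0.152 and 0.0691 without F344 aorta replicate 1 and 2.

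In BN, Sod3 was at 10.02 and 10.80 in DA, against 10.56 and 10.40 in aorta. The BN DA arrays lay on either side of the aorta arrays, and the difference was -0.07 ± 0.22 SE (limma adjusted p = 0.947, 95% interval -0.57 to 0.43). Without BN DA replicate 1 it was 0.32 ± 0.16 SE, and without BN DA replicate 2 it was -0.45 ± 0.16 SE. The replicate gap of 0.77 in BN DA was the largest of the 10 genes, and 3.55% of all genes had BN DA replicates at least as far apart.

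Sod3 was 1.89-fold higher in BN DA than in F344 DA (10.41 ± 0.55 against 9.49 ± 0.07, SD, n = 2), without overlap of arrays. The difference of 0.92 ± 0.22 SE fell just outside the threshold (limma adjusted p = 0.0508, unadjusted p = 0.00239, 95% interval 0.42 to 1.42). It was 1.30 ± 0.16 SE without BN DA replicate 1 (limma adjusted p = 0.00269) and 0.53 ± 0.16 SE without BN DA replicate 2 (0.0677), and it passed in 4 of the 15 alternatives, with an adjusted p between 0.00269 and 0.26. In aorta the strains overlapped (0.04 ± 0.22 SE, limma adjusted p = 0.998). The interaction, which compares the tissue difference between strains, was 0.87 ± 0.31 SE and did not pass (unadjusted p = 0.0207, limma adjusted p = 0.443). Without BN DA replicate 1 it was 1.26 ± 0.21 SE and passed (limma adjusted p = 0.0401, and between 0.0401 and 0.903 over the alternatives). The F344 tissue comparison and the DA strain comparison use the same F344 DA arrays, so the -0.94 of the first and the 0.92 of the second are not independent.

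**Figure D2:**
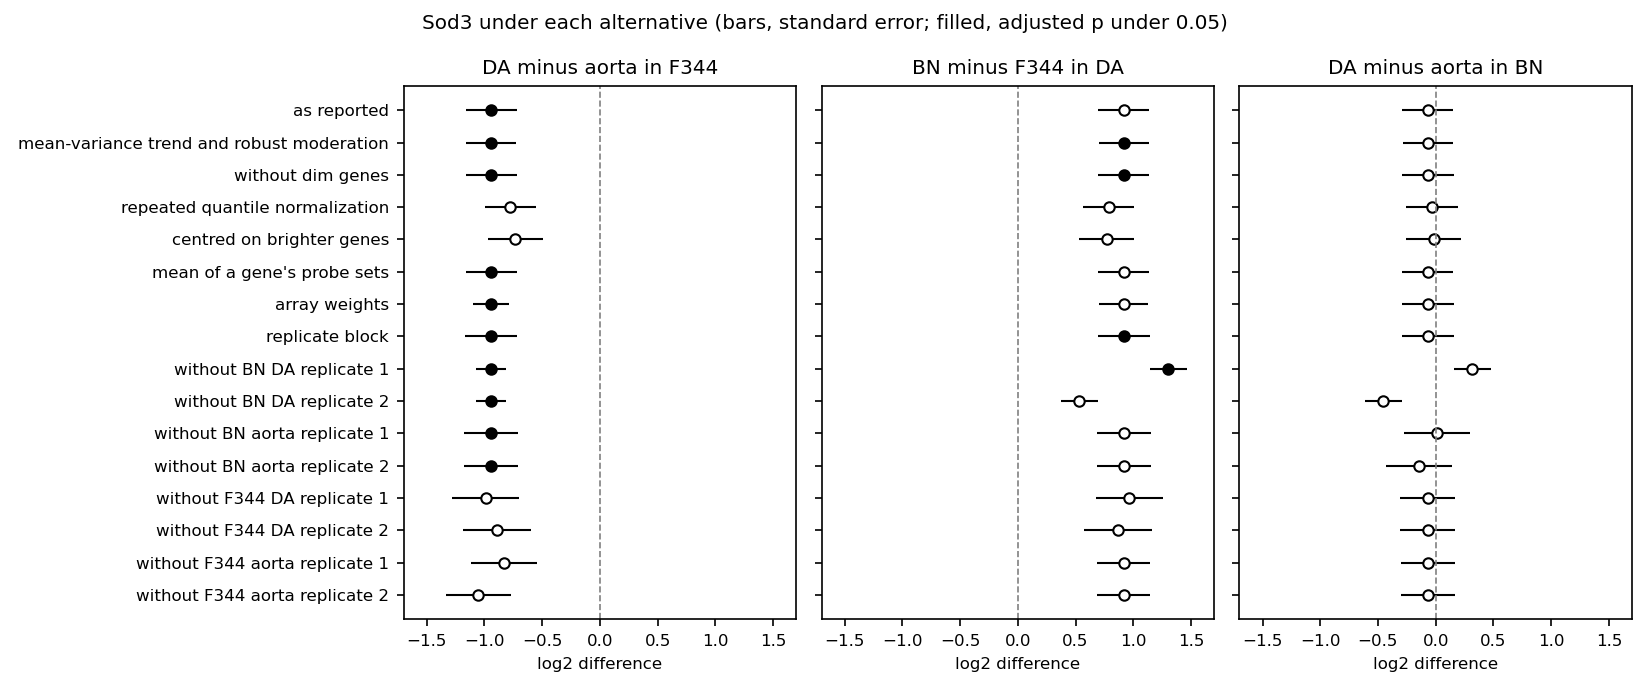
Log2 difference of Sod3 (horizontal axis) in 3 comparisons, as reported and under the 15 alternatives (rows), with bars of 1 standard error; filled points have a limma adjusted p under 0.05. The F344 tissue difference stays between -1.05 and -0.73, whereas the comparisons that use BN DA move with its replicates.

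Sod1 and Sod2 encode the dismutases of the cytosol and the mitochondrial matrix. Sod1 was at 10.55 and 10.33 in BN DA, against 10.25 and 10.37 in BN aorta, and at 10.49 and 10.58 in F344 DA, against 10.34 and 10.36 in F344 aorta. The F344 tissues did not overlap and the BN tissues did, but neither difference passed (0.13 ± 0.13 SE in BN and 0.18 ± 0.13 SE in F344, limma adjusted p = 0.749 and 0.364). The 95% intervals were -0.16 to 0.42 in BN and -0.10 to 0.47 in F344.

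Sod2 was at 8.83 and 8.52 in BN DA, against 8.75 and 8.46 in BN aorta. It was at 8.45 and 8.34 in F344 DA, against 8.75 and 8.73 in F344 aorta. Both F344 DA arrays were lower than all other arrays, as for Sod3 and Gclc. The share of all genes with this pattern was not counted. Of all genes, 37.8% were lower without overlap in F344 DA than in F344 aorta, and 25.9% were lower than in BN DA. The F344 tissue difference was -0.34 ± 0.15 SE, which did not pass (unadjusted p = 0.0477, limma adjusted p = 0.165), and the BN tissue difference was 0.07 ± 0.15 SE (limma adjusted p = 0.918).

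Cat encodes catalase, which breaks hydrogen peroxide down in peroxisomes. It was at 10.96 and 10.98 in BN DA, against 10.83 and 10.72 in BN aorta. In F344 it was at 10.73 and 10.52 in DA, against 10.89 and 10.59 in aorta. The BN DA arrays were the highest of all 8. The difference between BN DA and F344 DA was 0.34 ± 0.14 SE and did not pass (unadjusted p = 0.0393, limma adjusted p = 0.194), nor did the tissue difference in BN (0.19 ± 0.14 SE, limma adjusted p = 0.646).

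Gpx3 encodes the glutathione peroxidase that is secreted into plasma, a selenoprotein. It was at 8.18 and 8.41 in BN DA, against 8.74 and 8.61 in F344 DA. In aorta it was at 8.55 and 8.23 in BN, against 8.75 and 8.41 in F344. The strains did not overlap in DA but did in aorta, and BN was lower by group mean in both tissues. The differences were -0.38 ± 0.17 SE in DA (unadjusted p = 0.0476, limma adjusted p = 0.214) and -0.19 ± 0.17 SE in aorta (limma adjusted p = 0.998). The average over tissues was -0.29 ± 0.12 SE (limma adjusted p = 0.233), and 2.65% of all genes were called in that comparison. Of the 10 antioxidant genes 0 were called there by limma, and 2 had an unadjusted p under 0.05, against 19% of all genes.

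**Figure D3:**
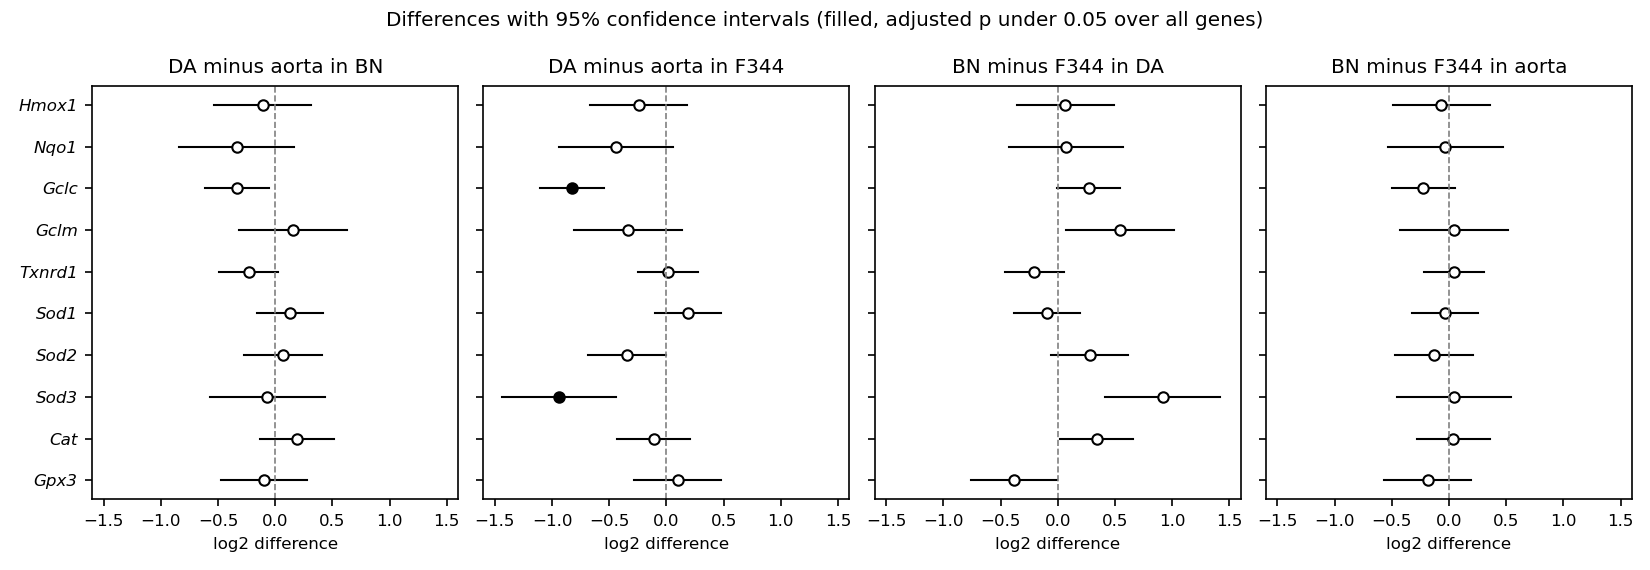
Log2 difference (horizontal axis) of each antioxidant enzyme gene (rows) in the 4 comparisons, with 95% confidence intervals from the limma fit; filled points have an adjusted p under 0.05 over all 14506 genes. Filled points are Gclc at -0.83 and Sod3 at -0.94 in the F344 tissue comparison.

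The antioxidant genes were also counted by whether the arrays of the groups overlapped. In F344, 5 of the 10 genes had non-overlapping tissues, 1 higher and 4 lower in DA, where 67.4% of all genes did, 29.6% higher and 37.8% lower. In BN 3 of 10 did, against 37.3% of all genes. Between strains, 7 of 10 did in DA, 5 higher and 2 lower in BN, against 50.1% of all genes, 25.9% higher and 24.3% lower, and 2 of 10 did in aorta, against 35.7%. The interaction called 0 of the 10 genes and 0 of all genes by limma, a share of 0%, and 2 of the 10, Gclc and Sod3, had an unadjusted p under 0.05, against 9.67% of all genes.

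Markers of other cell types also moved between the F344 tissues, where Gclc and Sod3 fell. In that comparison 14% of all genes were called and 5.12% were lower. Of 13 tested endothelial markers 0 rose and 6 fell in F344 DA, with mean levels of 8.58 and 8.50 in F344 DA against 9.11 and 9.02 in F344 aorta. Of 10 adventitial fibroblast markers 1 rose and 4 fell, with means of 10.23 and 10.13 against 10.53 and 10.41. Of the 15 tested markers of macrophages and myeloid cells 0 rose and 4 fell, with means of 7.20 and 7.07 against 7.75 and 7.48. Of 9 epithelial and mesothelial markers 1 rose and 3 fell, with means of 6.52 and 6.51 against 7.22 and 6.88. The 3 were Cldn1 at -2.39, Krt8 at -1.80 and Krt18 at -1.36, the 1 that rose was Epcam at 0.81, and the median difference of the 9 was -0.02. Of the fibroblast markers, the 1 that rose was Dpep1 at 1.94, and the 4 that fell lay between -1.34 and -0.64. In BN, where Gclc and Sod3 did not pass and 1.81% of all genes were called, 1 of 9 epithelial and 3 of 10 fibroblast markers fell in DA, and by limma 0 of 13 endothelial and 0 of 15 macrophage markers passed, with 1 and 6 at an unadjusted p under 0.05, against 14% of all genes. Of the 15 macrophage markers 13 had a negative difference in BN, with a median of -0.33, against -0.49 in F344. For the 13 endothelial markers 6 were negative in BN, with a median of 0.08. The BN aorta means were 8.91 and 8.93 for endothelial, 10.59 and 10.52 for fibroblast, and 7.92 and 7.85 for macrophage markers. Sod3 was at 10.02 and 10.80 on the BN DA arrays. The marker means on them were 9.09 and 8.79 for endothelial, 10.31 and 10.40 for fibroblast, and 7.35 and 7.63 for macrophage markers. The 10 cardiomyocyte markers had means of 6.74 and 7.06 there, and the 9 epithelial and mesothelial markers 6.58 and 7.02. The part of these cell types in the antioxidant gene differences was not tested.

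The genes whose patterns over the 8 arrays were most like those of Gclc and Sod3 were found by the root mean square distance after each gene's own mean was removed. For Gclc, whose values had an SD of 0.34 over the 8 arrays, they were Eya2 at a distance of 0.08, Aspn at 0.08 and C2h4orf46 at 0.08. For Sod3, with an SD of 0.49, they were Ttc39b at 0.12, Tspan8 at 0.13 and Nedd4l at 0.13. The Ttc39b values were 7.79 and 8.30 in BN DA, and 7.21 and 7.26 in F344 DA, against 7.99 and 8.03 in F344 aorta. Like Sod3, Ttc39b was lowest on both F344 DA arrays and higher on BN DA replicate 2 than on replicate 1. The distances are descriptions over arrays that share their groups.

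Of the regulators of the NRF2 pathway, Nfe2l2, Keap1 and Bach1 did not pass in any of the 4 comparisons. Nfe2l2 was at 9.39 and 8.91 in BN DA, against 9.34 and 8.95 in BN aorta, and at 8.89 and 8.45 in F344 DA, against 9.33 and 8.82 in F344 aorta. Replicate 1 was higher than replicate 2 in every group, as it was for Gclm. The Nfe2l2 differences were 0.00 ± 0.24 SE between the BN tissues, -0.41 ± 0.24 SE between the F344 tissues and 0.48 ± 0.24 SE between the strains in DA (limma adjusted p = 0.997, 0.288 and 0.274). With the replicate number as a block the F344 tissue difference and the DA strain difference of Nfe2l2 passed (limma adjusted p = 0.0296 and 0.0277, and up to 0.802 and 0.778 over the alternatives). For Keap1 the tissue differences were -0.38 ± 0.18 SE in BN and -0.32 ± 0.18 SE in F344, and for Bach1 they were -0.03 ± 0.12 SE and -0.15 ± 0.12 SE.

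Other genes of the same pathways were read from 10 lists, which held 122 tested genes beside the 10. In F344 3 of the 122 rose and 4 fell in DA, or 5.74%, against 14% of all genes. In BN 1 rose and 1 fell, or 1.64%, against 1.81% of all genes. In DA, 4 were higher and 0 lower in BN than in F344, or 3.28%, against 4.53% of all genes, and in aorta 0 passed by limma, against 0.159% of all genes, and 11 had an unadjusted p under 0.05, against 5.22%. In the interaction 0 passed by limma, and 5 had an unadjusted p under 0.05, against 9.67% of all genes.

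Among these genes, Glrx, which encodes the thiol-reducing enzyme glutaredoxin, was the 1 gene that rose in DA in both strains. It was at 10.01 and 9.83 in BN DA, against 9.02 and 9.08 in BN aorta, and at 9.92 and 9.90 in F344 DA, against 8.96 and 9.07 in F344 aorta. All DA arrays were above all aorta arrays. The differences were 0.87 ± 0.12 SE in BN and 0.90 ± 0.12 SE in F344 (limma adjusted p = 0.0125 and 0.00238), and the BN call was lost without BN aorta replicate 1 (adjusted p = 0.122) or replicate 2 (0.0549). The cystine transporter gene Slc7a11, which supplies cysteine for glutathione, was at 7.64 and 5.64 in BN DA, against 5.33 and 5.18 in BN aorta, and at 5.97 and 5.58 in F344 DA, against 5.05 and 5.05 in F344 aorta. In both strains every DA array lay above every aorta array. BN DA replicate 1, the array with the highest thymocyte markers, stood far above all others. The BN tissue difference did not pass (1.39 ± 0.49 SE, limma adjusted p = 0.227). The part of these cells in it was not tested.

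The genes that fell in F344 DA beside Gclc and Sod3 were Ephx1, which encodes microsomal epoxide hydrolase, at -1.10 ± 0.22 SE, the metal transporter gene Slc39a14 at -1.04 ± 0.17 SE, the repressor gene Bach2 at -0.83 ± 0.16 SE and Trim16 at -0.51 ± 0.13 SE (limma adjusted p = 0.0119, 0.00413, 0.0108 and 0.0345). The BN tissue differences of the same genes were -0.37 for Ephx1, -0.62 for Slc39a14, -0.63 for Bach2 and -0.22 for Trim16, and none of the 4 passed. The F344 call of Slc39a14 held under all 15 alternatives, whereas those of Bach2 and Trim16 were lost without any 1 of the 4 F344 arrays, and that of Ephx1 without 2 of them in turn. Trim16 was also lost with quantile normalization repeated (-0.37, limma adjusted p = 0.108) and with centring on brighter genes (-0.30, 0.193). Without F344 aorta replicate 1, the limma adjusted p was 0.104 for Ephx1, 0.09 for Bach2 and 0.216 for Trim16. Gsta1 rose in F344 DA by 0.99 ± 0.24 SE, and so did Nox3, which encodes a superoxide-producing oxidase, by 0.73 ± 0.14 SE (limma adjusted p = 0.0261 and 0.00817, and up to 0.148 and 0.0891 with an alternative). With quantile normalization repeated, the Nox3 difference was 0.33 (limma adjusted p = 0.0845). Nox3 was dim, at 5.72 and 5.81 in F344 DA, against 4.93 and 5.15 in F344 aorta. Nox4, which encodes an oxidase that releases hydrogen peroxide, fell in BN DA, with a difference of -0.88 ± 0.15 SE (limma adjusted p = 0.025, and up to 0.163 with an alternative). It was at 7.23 and 7.59 in BN DA, against 8.26 and 8.32 in BN aorta, and at 7.46 and 7.41 in F344 DA, against 7.64 and 7.41 in F344 aorta.

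Between strains in DA, the glutathione transferase gene Gstm1 was 2.57-fold higher in BN. It was at 10.20 and 9.84 in BN DA, against 8.73 and 8.58 in F344 DA (limma log2 difference 1.36 ± 0.20 SE, adjusted p = 0.0139). The strains did not overlap in DA, and they overlapped in aorta, at 9.76 and 9.22 in BN and 9.42 and 9.11 in F344. The values of Gstm1 and Gsta1 are uncertain, because transcripts of closely related transferase genes may bind to the same probes. Lcn2, which encodes a lipocalin that binds iron carriers of bacteria, was 3.40-fold higher in BN DA (1.76 ± 0.25 SE, limma adjusted p = 0.0126), Ephx1 was higher by 0.94 ± 0.22 SE (0.0496) and Trim16 by 0.70 ± 0.13 SE (0.0267). Leaving out either F344 DA array ended all 4 of these calls, with adjusted p up to 0.139 for Gstm1, 0.132 for Lcn2, 0.3 for Ephx1 and 0.167 for Trim16 over the alternatives. The Ephx1 call was also lost with quantile normalization repeated (0.84), with centring on brighter genes (0.79) and with array weights. The call was lost as well without BN DA replicate 2 (0.69) and without any 1 of the aorta arrays. That of Trim16 was also lost with centring (0.55) and without either F344 aorta array. Ephx1 stayed called in 5 of 15 alternatives, Trim16 in 10 of 15, Gstm1 in 13 of 15 and Lcn2 in 12 of 14. In aorta Lcn2 was at 7.35 and 7.09 in BN, against 5.72 and 6.04 in F344, a difference of 1.34 ± 0.25 SE that did not pass (limma adjusted p = 0.133).

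Of the 8 glutathione peroxidase genes, Gpx3 included, 0 passed by limma in any of the 4 comparisons, and in each comparison 1 had an unadjusted p under 0.05. Of the 16 genes of the thioredoxin and peroxiredoxin system, Txnrd1 included, 0 passed by limma as well, with 1 at an unadjusted p under 0.05 between the BN tissues, 0 between the F344 tissues, 4 between strains in DA and 1 in aorta. The shares of all genes at an unadjusted p under 0.05 were 14%, 29.5%, 22.8% and 5.22% in the same order.

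Averaged over strains, 8 of the 122 other pathway genes rose in DA and 11 fell, or 15.6%, against 16.6% of all genes. The glutathione peroxidase gene Gpx5 rose by 0.53 ± 0.11 SE, the metallothionein gene Mt2A by 0.52 ± 0.13 SE, the ferritin light chain gene Ftl1 by 0.41 ± 0.11 SE and the transferrin receptor gene Tfrc by 0.41 ± 0.12 SE (limma adjusted p = 0.00898, 0.0224, 0.0283 and 0.0415). Lcn2 also rose, by 0.69 ± 0.18 SE (limma adjusted p = 0.0283). Genes that take part in iron export and heme transport fell, with Slc40a1 at -0.43 ± 0.10 SE and Slc48a1 at -0.35 ± 0.10 SE (limma adjusted p = 0.0166 and 0.0433). Cybb, which encodes the catalytic subunit of the phagocyte oxidase, was at -0.79 ± 0.16 SE (limma adjusted p = 0.0101), in a comparison in which 7 of 15 macrophage markers fell. Mafk, whose product pairs with NRF2 on DNA, was at -0.52 ± 0.16 SE, the glutathione transferase gene Gstt2 at -0.34 ± 0.10 SE and Sesn1 at -0.36 ± 0.10 SE (limma adjusted p = 0.0489, 0.0409 and 0.0368). Many of these calls did not hold under the alternatives. Mafk stayed called in 5 of 15, Sesn1 in 6, Gstt2 and Slc48a1 in 7, Slc40a1 and Ftl1 in 10, Mt2A in 12 and Cybb in 14, and Tfrc stayed called in 6 of 14, Lcn2 in 8 and Gpx5 in 13. With quantile normalization repeated, Gpx5 was at 0.20 (limma adjusted p = 0.15) and Tfrc at 0.26 (0.253). Gpx5 was dim, with group means between 4.62 and 5.48, below the median of all gene values, 7.48. Group means of Gsta1, between 5.52 and 6.51, and of Tfrc, between 6.04 and 6.81, were below it as well. The other genes of these counts were Glrx, Gsta1 and Nox3, which rose, and Nox4, Bach2, Ephx1, Trim16 and Slc39a14, which fell. Of these, Trim16 stayed called in 8 of 15 alternatives, Nox4 in 12, Ephx1 in 13, and Gsta1 in 9 of 14. Glrx, Bach2 and Slc39a14 stayed called in all 15, and Nox3 in all 14. Averaged over tissues, 3 of the 122 genes were higher in BN than in F344, namely Gstm1, Lcn2 and Trim16, and 1 was lower, Duoxa1 at -0.57 ± 0.11 SE (limma adjusted p = 0.0321). That was 3.28% of the 122, against 2.65% of all genes. Lcn2 stayed called in all 14 alternatives, Gstm1 in 10 of 15, Trim16 in 9 of 15 and Duoxa1 in 9 of 14.

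**Figure D4:**
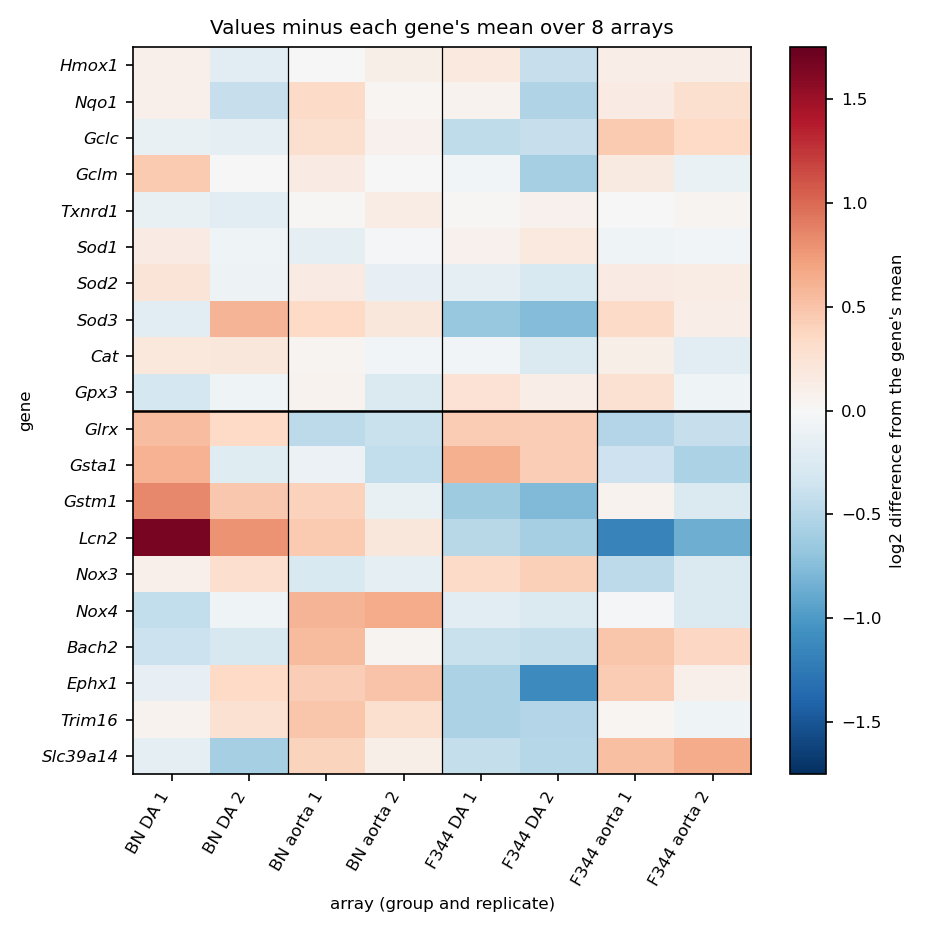
Log2 value minus the gene's mean over the 8 arrays (colour) for the 10 antioxidant genes (above the line) and the 10 other pathway genes called in at least 1 of the 4 comparisons (below it), by array (columns). Gclc and Sod3 are low on both F344 DA arrays, and Glrx is high on all DA arrays.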

How the data were processed

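The deposited table holds log2 values, per the file's range, for 29215 probe sets on 8 arrays and 0 columns of other samples. RMA is named in the submitters' processing notes, and the sources used here do not give its version or settings. The platform annotation gave 1 symbol for 15310 probe sets. Of these, 15279 had an entry in the RefSeq gene table (assembly GRCr8), where no symbol differed, and the probe set with the highest mean was kept for each of 14506 genes. Each of the 10 antioxidant genes had 1 probe set.

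Differences were tested with limma 3.58.1 in R 4.3.3. All 8 arrays entered 1 fit with 4 group means (4 residual and 5.2 prior degrees of freedom), with two-sided moderated tests and Benjamini-Hochberg adjustment over all genes. Errors are standard errors from the fit, and SD over 2 arrays for group means. The procedure was tested on simulated data with independent errors and changes added to F344 DA alone. Replicate differences shared between groups were not simulated, so that test does not cover them. The number of arrays limits the precision.

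The members and lists were chosen with earlier results of these data known. Named genes were the 10 members, called genes of the pathway lists (at most 4 per direction and comparison, by size), Nfe2l2, Keap1, Bach1, and the 3 genes most like each called member. Slc7a11 was named after its values were seen. The alternatives were the replicate number as a block, each array left out, a mean-variance trend with robust moderation, array weights, averaging the probe sets of a gene, the brighter genes alone, centring on them, and quantile normalization repeated. Some listed genes were not analysed here.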

Additional observations from a re-analysis of the deposited data

Results flagged for a closer look

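Of 20 genes, the 10 antioxidant genes and the 10 pathway genes called in at least 1 of the 4 comparisons, Gstm1 was the 1 whose arrays lay in opposite directions in the strains. It was at 10.20 and 9.84 in BN DA, above the 9.76 and 9.22 of BN aorta, and at 8.73 and 8.58 in F344 DA, below the 9.42 and 9.11 of F344 aorta. The interaction was 1.14 ± 0.29 SE and did not pass (limma adjusted p = 0.284). Of all 14506 genes, 3.8% showed such opposite directions on all arrays.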

How the results depend on the processing

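The count of antioxidant genes called between the F344 tissues was 2, and 1 with quantile normalization repeated, 1 with centring on brighter genes, and between 1 and 2 with 1 array left out. Between strains in DA it was 0, and 1 with a mean-variance trend and robust moderation, 1 without dim genes, 2 with the replicate block, and between 0 and 1 with 1 array left out. Averaged over strains it was 1, and 2 with the trend, 2 with array weights, and between 1 and 2 with 1 array left out. For the interaction and for strains averaged over tissues it was 0, and between 0 and 1 with 1 array left out. The cause of these changes was not tested. Where leaving out an array left 1 in its group, that array was assumed to vary like the other groups. The counts for the BN tissues and for the aorta strains were 0 under all alternatives.

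Of 45 alternative values of the 3 called antioxidant results, 39 stayed called, 6 lost the call and 0 changed sign. Of 991 values of the 67 results that were not called, 11 passed and 69 changed sign. Of 530 values of 36 called pathway results, 144 lost the call and 0 changed sign. Centring on brighter genes moved the median of all genes between the F344 tissues to 0.16, against -0.04 as deposited. Gclc was then at -0.62 and Sod3 at -0.73. Between strains in DA, 53.7% of called genes were higher in BN as deposited and 23.7% after centring. Averaged over strains 60.9% were higher in DA and 82.4% after centring, and averaged over tissues 61.5% were higher in BN and 37.4% after centring.

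Over all genes, the called count was 2028 in the F344 tissue comparison and between 628 and 3710 under the alternatives, 262 and between 16 and 600 in BN, 657 and between 13 and 1583 between strains in DA, 23 and between 0 and 69 in aorta, 0 and between 0 and 56 for the interaction, 2403 and between 887 and 3218 for tissues averaged over strains, and 384 and between 55 and 1015 for strains averaged over tissues. The 628 and the 887 were counts without dim genes, where 7253 genes were tested. Replicates share only a number in the labels. Their differences correlated across genes at 0.52 between the BN tissues, 0.22 between the F344 tissues, 0.20 between the strains in DA and 0.15 in aorta. For groups sharing neither strain nor tissue, the correlation was 0.35 between BN aorta and F344 DA and 0.03 between BN DA and F344 aorta. With the replicate block the called counts were 548, 2875, 1583 and 30, and beside Sod3 (adjusted p = 0.039) and Gclm (0.0338) in DA the block changed no other call of the 10 genes.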
